A study of Sorghum bicolor with 14 samples.

Results

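A set of 246 loci whose transcript level fell at every step as the soil dried was described in the stem of sorghum (Sorghum bicolor), out of 32726 loci in the drought table. RNA was sequenced from the middle internode of the grain variety M35-1. The drought plants grew 1 to a pot, got no more water from the flag leaf stage on and were sampled at booting, at meter readings of about 13% (group D1), 7% (D2) or 2% (D3) soil moisture. The field plants grew in a fertilised soil bed, were watered at intervals and were sampled at floral initiation (FI), booting (B), milky stage (MS) and soft dough (SD). Each of the 7 groups holds 2 libraries, 14 in all, and the labels do not say whether these came from separate plants. A watered pot group was not analysed here, so D1 is the wettest of the pot groups and not an unstressed control.

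Members were chosen by their drought values, as the loci with L(D1) above L(D2) above L(D3) and with L(D1) at least 2 above L(D3), where L is log2(FPKM + 1). FPKM is the authors' level of a locus per kilobase and per 1000000 mapped fragments, given as 1 pooled value per group. A difference of 1 on this scale means that FPKM + 1 changed by a factor of 2. The limit of 300 members was not reached. The members were 1.43% of the 17207 loci at 1 FPKM or more in a drought column. Since they were selected on these values, their fall is a description. Only the field columns and the positions of the loci were not used in that choice. The pots were also sampled at booting, so field booting can still be related to it. No value has a replicate error, and no test was possible.

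Sorghum is a C4 cereal that keeps growing on little water, and M35-1 is grown in India after the rains on the moisture left in the soil. Around booting, the internodes below the panicle lengthen by cell division and expansion at their base. The stem also stores sugar that can later move to the grain. When water runs short, stem growth usually slows early, under the influence of abscisic acid and of lower cell turgor. The files do not pair the locus IDs with gene names, so no function is given to any locus, and markers of the internode or of its cell types could not be checked. In bulk tissue, fewer cells of a type and less RNA per cell cannot be told apart.

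The columns behind these values were of similar size. The 3 drought columns summed to between 666300 and 706188 FPKM, and the 4 field columns to between 647966 and 720661 FPKM. The median of the measured loci of the drought table was 11.5 FPKM at D1, 11.4 FPKM at D2 and 11.1 FPKM at D3. On the log2(FPKM + 1) scale, the median of D2 minus D1 over these loci was -0.003 and that of D3 minus D2 was -0.02. The members thus fell while the middle of all loci stayed nearly level. Precision at low levels is limited. A step was taken as a low percentile of level times printed range, over shorter ranges with values above 0. By this estimate 1 FPKM over 1 kb equals 56.4 to 84.7 steps, and 5 members had a D3 value above 0 and under 5 steps. The printed range includes introns, which raises the steps counted at long ranges, so more members can rest on few fragments.

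The members spanned a wide range of levels at the start. At D1 they lay between 3.41 and 2226 FPKM, with a median of 22.6 FPKM. Their median was 8.79 FPKM at D2 and 2.36 FPKM at D3. At D1, 40 members had 100 FPKM or more, 157 had between 10 and 100 FPKM, and 49 had less than 10 FPKM. At D3, 69 members were below 1 FPKM, among them 4 listed at 0, while 57 still had 10 FPKM or more and 3 had 100 FPKM or more. The fall therefore ended below 1 FPKM for some members and at 10 FPKM or more for others.

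Most falls were close to the least size the rule takes. The difference D3 minus D1 was between -2 and -3 at 191 members, between -3 and -4 at 45 and at or beyond -4 at 10, with a median of -2.54 on the log2(FPKM + 1) scale. Just inside the threshold, a locus on chromosome 4 (61294517 to 61297495) had 128.6, 75.1 and 31.3 FPKM at D1, D2 and D3, a difference of -2.004. Just outside it, a locus on chromosome 10 (55049771 to 55055477) had 40.7, 22.7 and 9.46 FPKM at D1, D2 and D3, a difference of -1.996. The edge of the set is thus continuous with the loci beside it. A further 55 loci were at least 2 lower at D3 than at D1 without a steady course. Of these, 35 had D2 above D1, 19 had D2 below D3 and 1 had D2 equal to a neighbouring column.

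The fall was uneven over the 2 steps of drying. A fall of at least 1 came only between D2 and D3 at 117 members, only between D1 and D2 at 68 and at both steps at 61. Over all loci measured, 4.92% fell by that much at the first step (D2 minus D1) and 5.12% at the second (D3 minus D2). Over the whole course (D3 minus D1), 8.1% did. These columns chose the members, so nothing is read from the comparison. The larger part of the fall came at the second step at 153 members and at the first step at 93. The first step held a median of 39.5% of the fall. At 18 members D2 lay within 0.2 of D1, and at 14 members D3 lay within 0.2 of D2, so that the course of these was close to a single step.

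**Figure D1:**
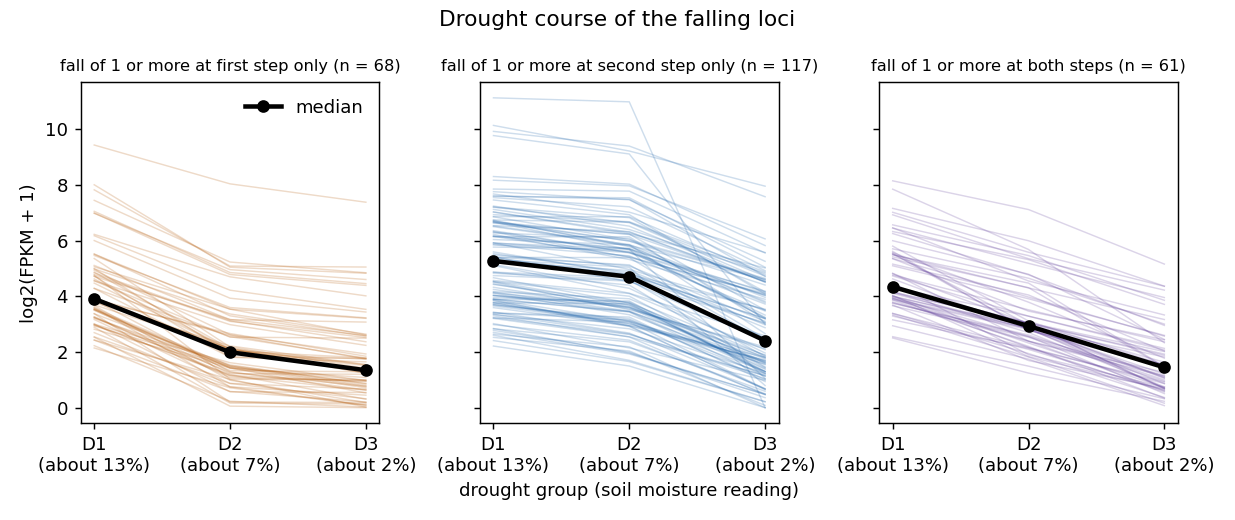
Level of each of the 246 falling loci as log2(FPKM + 1) at D1, D2 and D3, with the soil moisture reading under each group. Thin lines are loci, the black line is the median, and the panels separate the 68 loci with a fall of 1 or more at the first step only, the 117 at the second step only and the 61 at both steps.

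The members that fell late started from higher levels than those that fell early. Those with their fall at the second step had medians of 37.5, 24.97 and 4.29 FPKM at D1, D2 and D3. Those with their fall at the first step had medians of 14.02, 2.97 and 1.54 FPKM at D1, D2 and D3. Those that fell at both steps had medians of 19.2, 6.63 and 1.73 FPKM at D1, D2 and D3. The groups by step were made from the drought values, so these levels describe them and the difference was not tested.

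**Figure D2:**
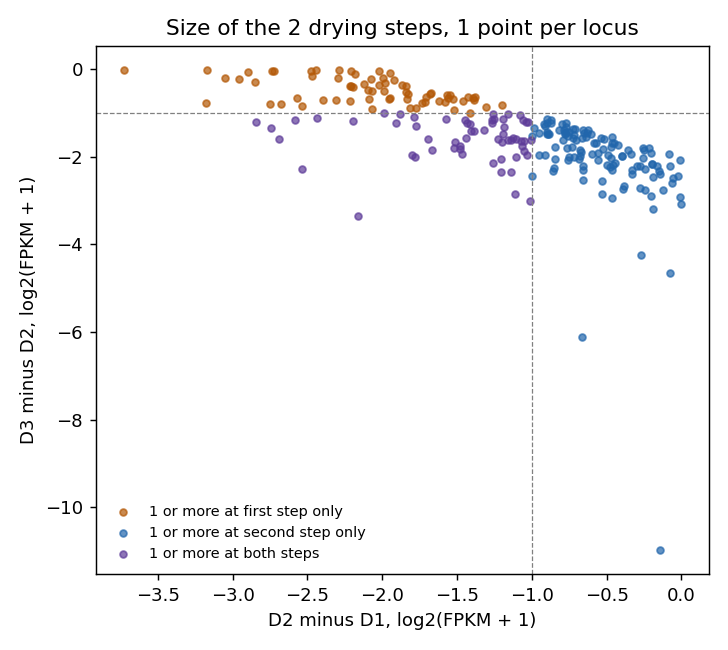
Size of the first drying step (D2 minus D1, horizontal) and of the second (D3 minus D2, vertical) on the log2(FPKM + 1) scale, with 1 point per falling locus and dashed lines at -1. The lowest point is the locus of 4 IDs on chromosome 10, 1 of the 4 listed at 0 at D3, and most points lie along the edge set by a total fall of 2.

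Among the members with 1 ID, the largest fall from D1 to D3 was at Sobic.009G119200, on chromosome 9 at 46821033 to 46826334. It had 870.2, 549.9 and 6.93 FPKM at D1, D2 and D3, a difference of -6.78. Almost all of this fall, -6.12, came at the second step. In the field it was near 0 for most of development, with 0.267, 0.162, 16.3 and 0.102 FPKM from floral initiation through booting and milky stage to soft dough. Its level in the wetter pots was therefore far above any field value. Even at D3 it stood 2.77 above field booting on the log2(FPKM + 1) scale.

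Sobic.001G086800, on chromosome 1 at 6729583 to 6731483, had the next largest fall. Its levels were 228.6, 50.2 and 4.03 FPKM at D1, D2 and D3, a difference of -5.51 shared by both steps. In the field it had 14.2, 18.9, 0.898 and 0.420 FPKM from floral initiation through booting and milky stage to soft dough. This locus was thus low in both grain filling stages and in the driest pots.

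Early and late falls are shown by the loci with the largest single steps. Sobic.004G245850 (chromosome 4, 59379519 to 59380383) had the largest first step: 26.0, 1.04 and 1.00 FPKM at D1, D2 and D3, a difference of -3.73 for D2 against D1. Sobic.004G157950 (chromosome 4, 50059553 to 50071336) followed with 30.8, 2.84 and 2.36 FPKM at D1, D2 and D3, a difference of -3.05 at that step. Both were already at their low level at the reading of 7%. The range of Sobic.004G157950 is shared with another locus. In contrast, Sobic.002G324000 (chromosome 2, 69488428 to 69490758) had 38.7, 31.9 and 0.736 FPKM at D1, D2 and D3, a difference of -4.24 for D3 against D2. Its field values were between a listed 0 at milky stage and 0.203 FPKM at floral initiation.

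The highest value of the set belongs to a locus of 4 IDs on chromosome 10, at 52122843 to 52228422. It had 2226 FPKM at D1 and 2015 FPKM at D2 and was listed at 0 at D3. A listed 0 can be a failed estimate, so no fold is given. In the field table the same locus had 2089 FPKM at floral initiation and was listed at 0 in the 3 later stages. Its range of 105580 bp is shared with another model. The other 3 members listed at 0 at D3 had at most 5.23 FPKM at D1. Next by level at D1 were 2 loci that were still high at D3 after a fall of more than 2 on the log2(FPKM + 1) scale. A locus on chromosome 4 (62897908 to 62899382) had 1121, 592 and 246 FPKM at D1, D2 and D3. A locus on chromosome 10 (57739068 to 57739666) had 965, 670.1 and 189 FPKM at D1, D2 and D3. These were the highest members left in the driest pots.

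The field stages, which the rule did not use, could be set beside the drought course for 186 of the 246 members, those listed under identical IDs and an identical range in the field table. Their medians were 8.05, 13.1, 9.35 and 10.4 FPKM from floral initiation through booting and milky stage to soft dough. Over the 13949 matched loci at 1 FPKM or more in any column, the medians at those stages were 9.74, 9.74, 9.21 and 9.69 FPKM. The members were below 1 FPKM at all 4 field stages in 11 cases. Those 11 had a median of 9.06 FPKM at D1, 3.55 FPKM at D2 and 0.587 FPKM at D3. The other 175 reached 1 FPKM at some stage, as did 13427 of the 13949 matched loci. Most members were therefore expressed in field-grown stems, as most matched loci were.

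**Figure D3:**
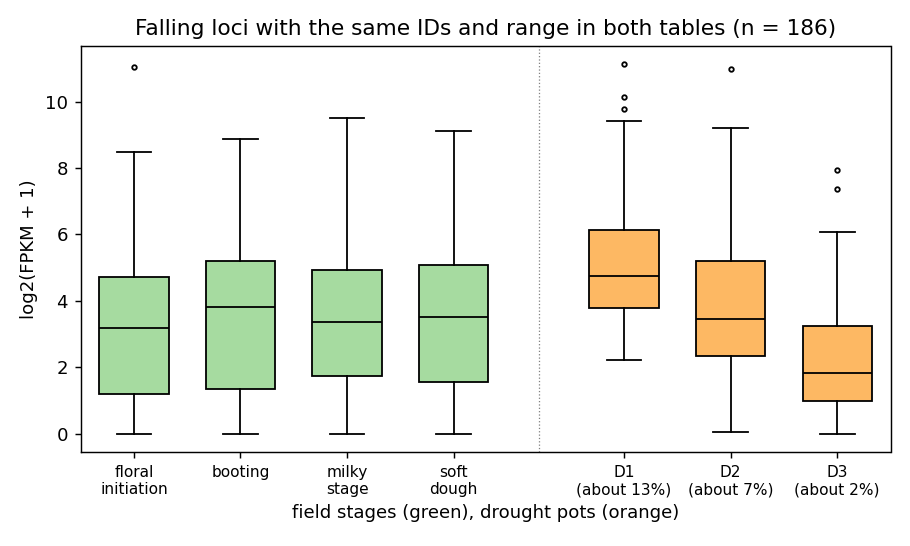
Levels of the 186 falling loci found in both tables, as log2(FPKM + 1), at the 4 field stages (green) and in the 3 drought groups (orange, with soil moisture readings). Boxes span the quartiles with the median as a line, whiskers reach to the last value within 1.5 times the box, and points lie beyond. The field boxes overlap widely, while the drought boxes step down because they chose the loci. The tables were normalized separately.

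A large share of the members changed over field development. Of the 175 that reached 1 FPKM, 154 (88.0%) differed by at least 1 between their highest and lowest stage, against 47.1% of the 13427 matched loci that reached it. Among these 154, booting was the highest stage for 52, soft dough for 48, milky stage for 37 and floral initiation for 17. Floral initiation was the lowest stage for 64 of them. Floral initiation was thus the highest stage for 11.04% of these members and the lowest for 41.6%, against 24.8% and 29.4% of all matched loci with such a span. Booting was the highest for 33.8% of these members, soft dough for 31.2% and milky stage for 24.0%. Of all matched loci with such a span, the shares were 25.3%, 29.1% and 20.8% in that order, so soft dough and milky stage lay near them. The members were picked for a large change between other columns, and how often other variable loci would differ this much was not tested.

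Booting against floral initiation showed the clearest lean. Of 150 members measured, 56 (37.3%) were higher and 11 (7.33%) lower at booting, against 5.5% higher and 3.5% lower over the 12475 matched loci measured. The median difference was 0.60 for the members and 0.05 for all matched loci, on the log2(FPKM + 1) scale. With the columns rescaled to one sum, these medians were 0.47 and -0.09. Loci that fell as the pots dried were thus more often above than below their early level at field booting. The rule takes loci that are high at D1, itself sampled at booting, and the part of this in the lean was not tested. The library titles of the 2 groups end in different digits whose meaning the labels do not give, and that digit and the stage cannot be told apart.

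Sobic.007G213800 (chromosome 7, 64257506 to 64258292) had the largest rise to booting, a difference of 3.44. Its level was 21.97, 248, 131 and 337 FPKM from floral initiation through booting and milky stage to soft dough. In the pots it had 255, 31.9 and 27.3 FPKM at D1, D2 and D3. D1 was therefore near the field booting value, and the drier pots were nearer the floral initiation value. Sobic.009G224200 (chromosome 9, 56638817 to 56639393) was 3.01 higher at booting, with 10.2, 88.8, 26.7 and 24.4 FPKM from floral initiation through booting and milky stage to soft dough. Its pot values of 6.90, 1.21 and 0.543 FPKM at D1, D2 and D3 all lay below every field stage. A few members went the other way. Sobic.009G161700 (chromosome 9, 51873474 to 51882333) had 63.5 FPKM at booting, against 241 FPKM at floral initiation, and had 32.9 FPKM at milky stage, with 8.83 FPKM left at soft dough. Its range is shared with another locus. Sobic.004G281700 (chromosome 4, 62397316 to 62398331) had 0.249 FPKM at booting, against 4.86 FPKM at floral initiation.

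The 56 members higher at booting had medians of 9.83, 29.1, 14.7 and 26.2 FPKM from floral initiation through booting and milky stage to soft dough. In the pots their medians were 33.3, 11.7 and 4.52 FPKM at D1, D2 and D3. At milky stage 20 of the 56 were lower and 4 were higher than at booting, where 14.1% and 10.5% of all matched loci were. At soft dough 28 of them were higher than at floral initiation, where 15.5% of all matched loci were. At D3, 44 were lower and 1 was higher than at field booting, where 13.2% and 10.6% were. At D1, 18 were higher and 12 lower than at field booting, where 13.6% and 12.0% were. Their choice used the floral initiation and booting values, and the last counts use D1 and D3, so all these counts only describe the group.

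**Figure D4:**
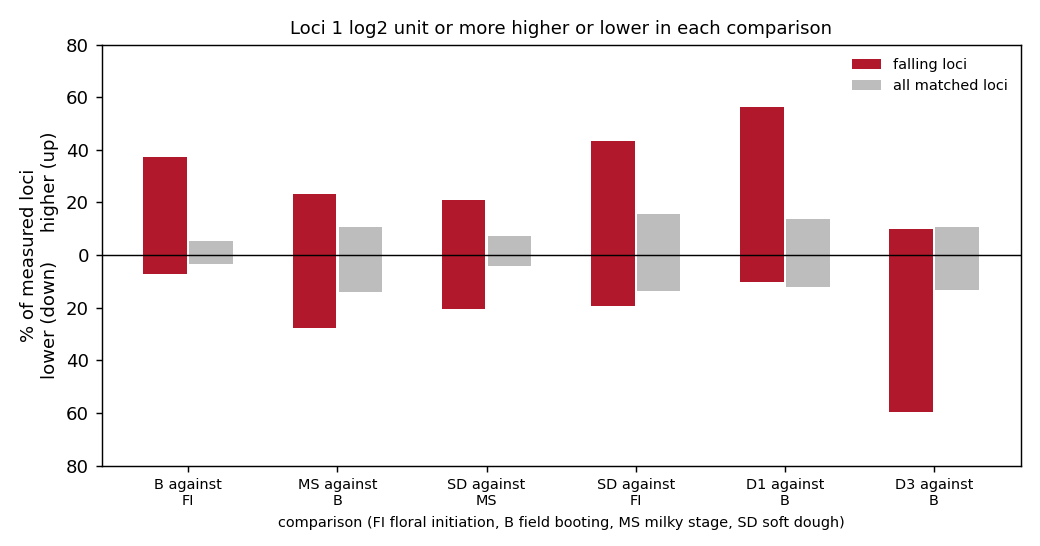
Share of loci that were higher (upward) or lower (downward) by at least 1 on the log2(FPKM + 1) scale in each comparison, for the falling loci (red) and for all matched loci (grey). For booting against floral initiation 37.3% of the falling loci were higher, against 5.5% of all matched loci. The comparisons with D1 and D3 use columns that chose the falling loci.

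From booting to milky stage the members split. Of 167 measured, 39 (23.4%) were higher and 46 (27.5%) lower at milky stage, where 10.5% and 14.1% of the 12763 matched loci were. The median difference was -0.23, against 0.002 over all matched loci. Sobic.009G038000 (chromosome 9, 3571339 to 3571908) had the largest rise. Its level was 0.885, 0.987, 216 and 93.2 FPKM from floral initiation through booting and milky stage to soft dough, and 71.1, 17.6 and 10.5 FPKM at D1, D2 and D3. Sobic.009G182400 (chromosome 9, 53599113 to 53599995) had 31.8 FPKM at milky stage, against 0.805 FPKM at booting. It had 23.6, 6.06 and 0.822 FPKM at D1, D2 and D3. At these loci D1 was well above field booting, the stage at which the pots were also harvested. They were named for a large rise from booting, and members were chosen for a high D1, so nothing is read from this. The reverse course was seen at Sobic.010G245500 (chromosome 10, 58538760 to 58540482). It had 101.8, 151, 5.33 and 2.76 FPKM from floral initiation through booting and milky stage to soft dough, and 86.8, 22.4 and 9.04 FPKM at D1, D2 and D3. Sobic.003G338700 (chromosome 3, 66179183 to 66180033) had 2.13 FPKM at milky stage, against 51.2 FPKM at booting.

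Between milky stage and soft dough, changes among the members were balanced. Of 162 measured, 34 (21.0%) were higher and 33 (20.4%) lower at soft dough, where 7.4% and 4.01% of the 12555 matched loci were. Sobic.002G143766 (chromosome 2, 25741058 to 25742732) had 5.15, 14.5, 0.0117 and 44.5 FPKM from floral initiation through booting and milky stage to soft dough, the largest rise of this step. Sobic.004G293500 (chromosome 4, 63363743 to 63368623) had 102 FPKM at soft dough, against 10.4 FPKM at milky stage. Both were much lower after the first drying step, with 2.54 FPKM at D2, against 25.3 FPKM at D1, at Sobic.002G143766. Sobic.004G293500 had 14.2 FPKM at D2, against 62.9 FPKM at D1. Sobic.001G226600 (chromosome 1, 21690595 to 21694416) had 0.993 FPKM at soft dough, against 12.6 FPKM at milky stage, and in the pots it fell late, with 15.3, 12.01 and 1.46 FPKM at D1, D2 and D3.

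Over the whole span, soft dough against floral initiation, 73 of 169 members (43.2%) were higher and 33 (19.5%) lower, where 15.5% and 13.8% of the 13005 matched loci were. The median difference was 0.67, against 0.06 over all matched loci. Sobic.009G038000 had the largest rise, 5.64, followed by Sobic.001G526900 (chromosome 1, 79115234 to 79121057). This locus had 1.299, 1.43, 36.6 and 64.5 FPKM from floral initiation through booting and milky stage to soft dough, and its pot values lay below both grain filling stages, with 13.3, 6.66 and 2.28 FPKM at D1, D2 and D3. The largest falls were at Sobic.010G189300 and Sobic.010G245500. Sobic.010G189300 (chromosome 10, 52995914 to 52997505) had 358, 218, 13.4 and 11.4 FPKM from floral initiation through booting and milky stage to soft dough, and 91.8, 78.8 and 21.99 FPKM at D1, D2 and D3. Members thus included loci of early and of late development.

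The development course differed in value between members that fell early and those that fell late. Of the members with a fall at the first step only, 27 of 46 were higher and 4 lower at soft dough than at floral initiation. Of those with a fall at the second step only, 27 of 81 were higher and 21 lower. Of those that fell at both steps, 19 of 42 were higher and 8 lower. Over all matched loci, 15.5% were higher and 13.8% lower. The medians of this difference were 1.10, 0.22 and 0.88 for the 3 groups in that order. At the last field step, soft dough against milky stage, 15 of 46 first-step members were higher and 4 lower, while 8 of 76 second-step members were higher and 20 lower. Over all matched loci, 7.4% were higher and 4.01% lower at that step. First-step members were thus more often higher than lower in both comparisons, while second-step members were more often lower than higher at the last field step. The difference between these groups was not tested.

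Field booting is the stage at which the pot plants were harvested, and its level was placed within the drought course of each member. Of the 186 members, 39 had field booting above D1, 48 between D1 and D2, 53 between D2 and D3 and 46 at or below D3. Field booting therefore had no fixed place in the course. D1 was at least 1 higher than field booting at 105 members (56.5%) and lower at 19 (10.2%), where 13.6% and 12.0% of the 12961 matched loci were. D2 was higher at 69 of 184 members and lower at 54, where 13.4% and 15.5% of all matched loci were. D3 was higher at 16 of 163 members and lower at 97, where 10.6% and 13.2% were. Choosing a high D1 and a low D3 sets part of these counts, so nothing is read from them. Growth in pots, withheld water, the digit in the library titles and the separate normalization of the tables cannot be told apart.

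The drought columns chose the members, split them by step and include D1, so the values of D1 beside field booting by step are a description from which nothing is read. Among members that fell at the first step only, D1 had a median of 14.5 FPKM and field booting one of 16.9 FPKM. Among members that fell at the second step only, the median was 39.9 FPKM at D1 and 12.3 FPKM at field booting. D1 was at least 1 above field booting at 18 of 49 first-step members and at 63 of 92 second-step members.

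Individual members lay far to either side of field booting. Sobic.003G423500 (chromosome 3, 72789981 to 72791081) had 76.4, 66.3 and 8.08 FPKM at D1, D2 and D3, against 0.123 FPKM at field booting. At floral initiation it had 0.0416 FPKM, and the 2 grain filling stages had 5.93 and 4.53 FPKM. On the other side, Sobic.010G234000 (chromosome 10, 57660660 to 57662280) had 24.4, 12.5 and 2.45 FPKM at D1, D2 and D3, against 269 FPKM at field booting. Its other field values were 168 FPKM at floral initiation, 110.1 at milky stage and 225 at soft dough. Its level in the pots was thus below all field stages already at D1, and it was lower still at D2 and D3.

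Set against all field stages together, D1 was above the 4 of them at 111 of 186 members (59.7%), where 29.4% of the 13949 matched loci were. D3 was below the 4 of them at 84 members (45.2%), where 21.9% were. Both held at 30 members (16.1%), where 0.853% were. For those 30, the drought course covered a wider range than the whole field course. Nothing is read from these shares, since D1 and D3 chose the members.

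The falling loci were set beside the 41 loci that met the mirror rule, rising at both steps by at least 2 in all. At booting against floral initiation, 56 of 150 falling loci were higher and 11 lower, against 4 of 21 higher and 4 lower among the measured of the 33 rising loci found in both tables. The 33 rising loci had medians of 1.22 FPKM at floral initiation and 1.25 FPKM at booting, against 8.05 and 13.1 FPKM for the falling loci. These medians include loci too low to be counted. On the log2(FPKM + 1) scale a difference of 1 is harder to reach at low levels, and the part of level in the counts was not tested. At soft dough against floral initiation, 73 of 169 falling loci were higher and 33 lower, against 12 of 25 higher and 4 lower among the rising loci. The median difference at booting against floral initiation was nevertheless alike, 0.60 for the falling and 0.61 for the rising loci, against 0.05 over all matched loci. The 55 loci that fell by at least 2 without a steady course had 14 of 36 higher and 2 lower at booting than at floral initiation. The lean towards field booting was thus also seen in falls that were not steady. These differences between lists were not tested.

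The printed range of a locus, from its first to its last base as the file gives it, was short at many members. Its median was 2136 bp for the members and 4474 bp for all 17207 loci measured in the drought table. Ranges under 1500 bp made up 30.1% of the members (74 of 246) and 7.55% of the measured loci. Ranges of 5000 bp or more made up 18.7% of the members and 43.2% of the measured loci. With only loci of 1 ID whose range no other locus has, the medians were 1904 bp for 207 members and 3889 bp for 13737 measured loci. The 13299 measured loci with a D1 value at least that of the lowest member had a median of 4634 bp, close to that of all measured loci.

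**Figure D5:**
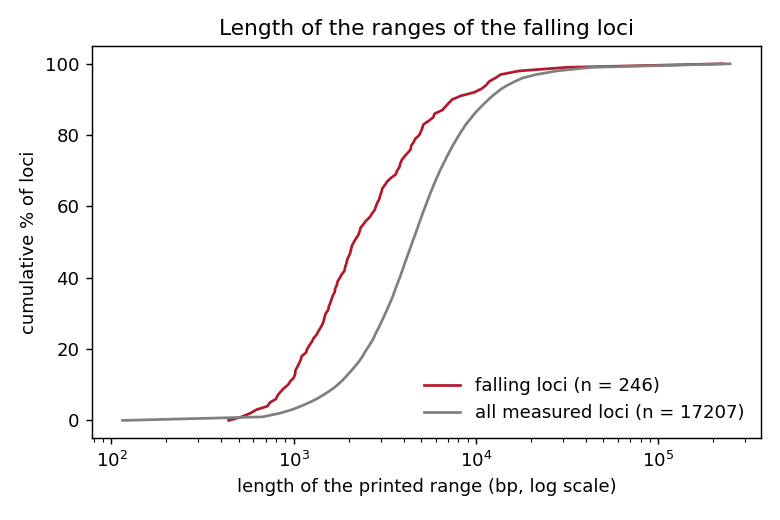
Cumulative share of loci by length of the printed range (log scale), for the 246 falling loci (red) and for all 17207 measured loci (grey). The red curve lies to the left over most of its course, with medians of 2136 bp and 4474 bp.

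Short ranges were not limited to steady falls. The 1380 loci at least 1 lower at D3 than at D1 had a median range of 2736 bp, the 596 loci at least 1 higher had 3798 bp, and the 41 rising loci had 2669 bp. Among the members, those that fell at the first step only had a median of 1680 bp, those at the second step only 2284 bp and those at both steps 2685 bp. FPKM is given per kilobase, so a short locus rests on fewer fragments at the same level, and the part of this in the fall was not tested. The range includes introns and can hold several models, so it is not the transcript length.

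Members lay on all 10 chromosomes. They made up between 0.675% of the measured loci on chromosome 8 (6 of 889) and 1.86% on chromosome 9 (27 of 1454). Chromosome 1 held the most, with 44. A range shared by several loci was taken as a member if any of them was. Ordered by position among ranges at 1 FPKM or more, 26 members formed 13 neighbouring pairs, and there were 0 runs of 3 or more. Most members thus had no other member next to them among the 16293 ranges ordered. How many pairs the same number of loci would form if placed at random was not tested, so neither scatter nor grouping is read from this count.

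Some pairs had like courses and others did not. On chromosome 9, between 56181501 and 56193268, the first locus had 10.96, 1.82 and 0.745 FPKM at D1, D2 and D3, and its neighbour had 10.6, 1.66 and 1.12 FPKM. On chromosome 10, between 57650496 and 57662280, the first had 16.2, 9.10 and 1.91 FPKM, and its neighbour, Sobic.010G234000, had 24.4, 12.5 and 2.45 FPKM. These courses run side by side. On chromosome 6, between 53979893 and 53988511, the first had 28.2, 3.34 and 1.51 FPKM, and its neighbour had 224.8, 32.9 and 32.1 FPKM. On chromosome 1, between 76155148 and 76162658, the first had 58.9, 51.5 and 8.46 FPKM, and its neighbour had 43.8, 21.2 and 1.77 FPKM. In the chromosome 1 pair the first locus kept most of its level at D2 and its neighbour did not. The first locus of the chromosome 10 pair and that of the chromosome 1 pair share their ranges with another locus.

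Of the members, 28 (11.4%) share their printed range with another locus, as 15.8% of the measured loci do. The ranges of these 28 hold 21 measured loci that are no members. Of these 21, 5 were at least 1 lower and 1 at least 1 higher at D3 than at D1, and 15 lay within 1, with a median difference of -0.19. Most loci in the same range thus did not fall with the member. How the authors shared fragments between such loci is not stated, and 13 members carry several IDs, so the values of both kinds of locus are less certain than those of the 207 members with 1 ID and a range of their own.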

How the data were processed

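The authors deposited FPKM values, per the file headers: a level per kilobase of transcript and per 1000000 fragments. They stand in a development table and a drought table, each with a single column for a group. Both libraries name that column in their labels, so it was taken as pooled. Per the submitters' processing notes, the tools were Cuffdiff, HISAT2 (2.0.5), Bowtie2 (2.2.9) and cutadapt (1.8.1). Genome build, filters and strand setting: not given in the sources used here.

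From these values, log2(FPKM + 1) differences were computed with pandas 2.3.3 in Python 3.11.15. A locus was measured when its higher value reached 1 FPKM and was called at a difference of 1 or more. The tables were normalized separately and were joined for 26825 loci of identical IDs and printed range. The selection code was run on simulated columns with planted falls and no variation between libraries. That run checks the code and says nothing about the members found here. With pooled columns there is no replicate error, and no test was run. Depth is unknown, because no total per library was used.

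Members and lists were chosen with earlier results of these data known. Named loci are, among those with 1 ID, at most 2 per comparison and direction, by size of change. The 38 product lists and the 14 promoter motifs were not run, since 0 of 34129 IDs matched the reference names used.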

Additional observations from a re-analysis of the deposited data

How the results depend on the processing

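No paired analysis was possible because each group has 1 pooled column and the result comes from no test; for the same reason no library could be left out. Of 120 values (15 counts under 8 alternatives), 110 stayed within 1.5 times. The pseudocount moved most. At 0.1, 514 loci met the rule, all 246 members among them. At 5, 87 met it. All counts of higher and lower members kept the members of the main rule, less any loci left out, and used no new selection. With a pseudocount of 5, 33 members were higher and 6 lower at booting than at floral initiation. At soft dough 22 were higher and 16 lower than at milky stage, and 47 higher and 18 lower than at floral initiation. At D3, 6 were higher than at field booting. A larger pseudocount shrinks each difference by construction. With at least 5 FPKM, 7 members were higher at D3 than at field booting, since fewer loci enter. With the members so kept, the balance of higher and lower at booting against floral initiation did not reverse under any alternative run. The same held at soft dough against floral initiation. Changing the pseudocount, the filter or the loci left out cannot change the direction of the difference at a locus. Only rescaling to one sum and median-of-ratios factors can, so the other alternatives were weak checks of these balances. Whether the balances hold for a changed selection was not tested. At soft dough against milky stage, the near-even balance of 34 higher and 33 lower turned to 31 and 35 with median-of-ratios factors, 38 and 39 at a pseudocount of 0.1 and 28 and 29 with at least 5 FPKM. Rescaling to one sum moved the median of all matched loci by over 0.1 at booting against floral initiation (-0.09, against 0.05 as deposited, on the log2 scale), where 48 members were then higher and 12 lower, and at D2 against field booting (0.19, against 0.09 as deposited). Product lists were not run.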
